A study of Mus musculus with 17 samples.

Results

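The genes described here encode the insulin-like growth factor (IGF) system: the ligands Igf1 and Igf2, the receptors Igf1r and Igf2r, and the binding proteins Igfbp2, Igfbp3, Igfbp4, Igfbp5, Igfbp6 and Igfbp7. Every probe set annotated to exactly 1 of these symbols was taken, which gave 23 of the 22626 probe sets tested and 10 of the 12393 genes they cover. RNA of the tibialis anterior, a shin muscle made mainly of fast fibres, was hybridised to 17 Affymetrix arrays of 1 colour, each with its own sample. The fiona group (5 arrays) came from a transgenic line in which utrophin is expressed at a high level on the mdx background, so these mice lack dystrophin as mdx mice do. The mdx group (6 arrays) came from mice with the dystrophin mutation and no transgene. The normal group (6 arrays) came from wild-type mice. Per the labels, all mice were males of 56 days, and the muscles of both legs were pooled for each sample. The strain of the wild-type mice, the number of founder lines and the promoter of the transgene are not given in the sources used here.

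IGF1 and IGF2 are small secreted proteins that bind the tyrosine kinase receptor IGF1R, which signals through AKT and mTOR toward growth, survival and protein synthesis. IGF2R carries no kinase and takes IGF2 to the lysosome, and in the mouse Igf2 is transcribed from the paternal allele and Igf2r mainly from the maternal one. The binding proteins hold IGFs outside the cell, and proteases that cut them set the ligands free. In skeletal muscle IGF1 is known as a hypertrophic factor made by macrophages, fibroblasts and fibres, and IGF2 as a factor that myoblasts make as they differentiate.

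Promoter windows, from 250 bases before to 50 bases after each annotated start, were read from RefSeq (GRCm38.p6) for all 10 genes, which have 14 windows between them. Windows of Igf1, Igf2, Igfbp4 and Igfbp6, which had calls between groups, are printed, and those of Igf2r and Igfbp2, also called, are not. They are given 5′ to 3′ on the strand of the gene, with 4 kinds of core motif in capitals: the E-box CAGCTG that myogenic factors bind, the GC box GGGCGG, the TATA box TATAAA and the CCAAT box CCAAT, each searched on both strands. The windows are Igf1 at chr10:87860861-87861160 (plus strand), the most downstream of 4 Igf2 starts at chr7:142657447-142657746 (minus strand), Igfbp4 at chr11:99040994-99041293 (plus strand) and Igfbp6 at chr15:102143936-102144235 (plus strand).
Igf1: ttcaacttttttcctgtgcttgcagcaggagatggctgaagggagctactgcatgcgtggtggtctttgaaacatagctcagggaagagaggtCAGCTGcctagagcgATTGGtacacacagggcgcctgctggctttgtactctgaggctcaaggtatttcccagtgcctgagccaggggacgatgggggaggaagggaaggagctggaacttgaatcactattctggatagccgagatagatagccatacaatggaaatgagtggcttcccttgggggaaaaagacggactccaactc
Igf2: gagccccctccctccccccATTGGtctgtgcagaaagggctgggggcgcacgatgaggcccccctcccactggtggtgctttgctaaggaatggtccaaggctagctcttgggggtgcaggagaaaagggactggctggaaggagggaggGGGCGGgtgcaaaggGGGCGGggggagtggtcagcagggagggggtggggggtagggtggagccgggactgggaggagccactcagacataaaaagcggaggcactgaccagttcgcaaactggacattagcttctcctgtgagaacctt
Igfbp4: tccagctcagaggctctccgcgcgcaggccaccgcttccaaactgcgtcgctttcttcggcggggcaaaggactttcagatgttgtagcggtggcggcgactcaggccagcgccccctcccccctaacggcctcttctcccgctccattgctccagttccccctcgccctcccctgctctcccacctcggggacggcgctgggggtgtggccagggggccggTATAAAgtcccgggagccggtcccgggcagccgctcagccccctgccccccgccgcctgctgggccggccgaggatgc
Igfbp6: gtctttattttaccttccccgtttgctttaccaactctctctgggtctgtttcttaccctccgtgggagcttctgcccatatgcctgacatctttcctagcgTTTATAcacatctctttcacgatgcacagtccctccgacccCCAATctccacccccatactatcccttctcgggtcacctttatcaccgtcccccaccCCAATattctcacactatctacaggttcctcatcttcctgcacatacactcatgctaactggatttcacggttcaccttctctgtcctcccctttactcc

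The only E-box in the 14 windows lay in that of Igf1, 157 bases before the start, with a CCAAT box at 142 bases before it. The Igf2 window held GC boxes at 100 and 85 bases before the start and a CCAAT box at 231 bases before it. Igfbp4 had a TATA box at 28 bases before the start, and Igfbp6 had one at 148 bases before the start and CCAAT boxes at 107 and 50 bases before it. Among all 32817 mouse windows of this length, 16.3% held the E-box, 35.6% the GC box, 13.6% the TATA box and 37.4% the CCAAT box. A match describes the letters alone, and which Igf2 start was in use was not measured.

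All levels and differences are on the log2 scale of the deposited values. Dmd, the dystrophin gene, set fiona and mdx apart from normal muscle on 2 of its 3 probe sets. The brightest ran from 4.20 to 6.70 in fiona and from 4.12 to 6.30 in mdx, against 7.42 to 9.29 in normal muscle, and the next averaged 3.39 ± 0.14 in fiona (SD, n = 5) and 3.35 ± 0.10 in mdx, against 6.64 ± 0.20 in normal muscle (n = 6 each). On the dimmest the groups lay between 2.90 and 3.66. Utrn, the gene of the transgene, was not higher on its brightest probe set, at 5.21 to 7.36 in fiona, 6.45 to 7.59 in mdx and 6.50 to 7.11 in normal muscle, with fiona array 5 the lowest of all. On its other 2 probe sets no mdx or normal array exceeded the background level, which is that of bacterial control probe sets. There fiona arrays 1 and 4 measured 6.39 and 7.02 on one and 4.94 and 7.28 on the other, while the other 3 fiona arrays ran from 2.68 to 3.54 and from 2.48 to 3.78, and fiona array 2 did not exceed the background on the first, nor fiona array 5 on the second. The labels give males throughout, but 7 arrays carried a female pattern of Xist and the Y-linked Eif2s3y, namely 4 of 5 fiona arrays, 2 of 6 mdx arrays and 1 of 6 normal arrays. In addition mdx array 6 carried both, with Xist at 5.40, where the other 9 arrays with high Eif2s3y lay under the control level, and Eif2s3y at 8.11. The residuals from the group means also divided the arrays, by the sign of their main component (42.7% of the residual variance), into a set 1 of 2 fiona, 3 mdx and 3 normal arrays and a set 2 with the other 3 of each group. No label gives a batch, so results are also given within these sets and without the arrays that go against their label. The sets come from these same values, so adjusted p values with the array set as a block tend to be too small. The level of the 15 unspiked bacterial control probe sets, used as the background level of each array, averaged 2.89 in fiona, 2.70 in mdx and 2.77 in normal muscle. Of the 23 probe sets, 17 lay above this level on every array and 3 at or under it on every array (1 each of Igf2, Igfbp4 and Igfbp7).

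In mdx muscle, Igf2 on its brighter probe set and, on 1 of its 3 probe sets, Igf1 were higher than in normal muscle. Both were lower in fiona than in mdx muscle, together with Igf2r on its brighter probe set, Igfbp6 and 1 of the 6 probe sets of Igfbp4. Against normal muscle, 2 of the 23 probe sets rose in mdx muscle and 0 fell (limma, adjusted p under 0.05 over all probe sets), where 2.73% of all probe sets rose and 1.30% fell. The median log2 difference was 0.24 over the 23 and -0.04 over all. Between fiona and mdx muscle, 2 probe sets rose and 7 fell in fiona, where 36.0% of all probe sets rose and 6.08% fell. There the median log2 difference was -0.50 over the 23 and 0.08 over all. Between fiona and normal muscle 0 of the 23 passed, with 5 at an unadjusted p under 0.05, where 22.8% of all probe sets had one, and 0% of all probe sets rose and 0.00442% fell. The median log2 difference was -0.09 over the 23 and 0.04 over all. In the fiona and mdx comparison far more of all probe sets rose than fell, and the control level averaged 2.89 in fiona and 2.70 in mdx muscle. Centring every array on its median left 4 calls of 9 there, all of them lower, with Igf1 on 2 probe sets, Igf2 and Igf2r. Quantile normalization left 2 calls there. Two-sided exact permutation tests of single probe sets, 69 in all over the members and given unadjusted, gave 0.00216 for both calls between mdx and normal muscle, the smallest that 6 against 6 arrays allow. For the 9 calls between fiona and mdx muscle they ran from 0.00433, the smallest for 5 against 6, to 0.0563 for Igfbp4 (1423756_s_at), with 0.0433 for Igf2r and for Igf1 (1419519_at) and 0.0303 for Igfbp6. All 3 comparisons share arrays, so their values are given side by side.

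**Figure D1:**
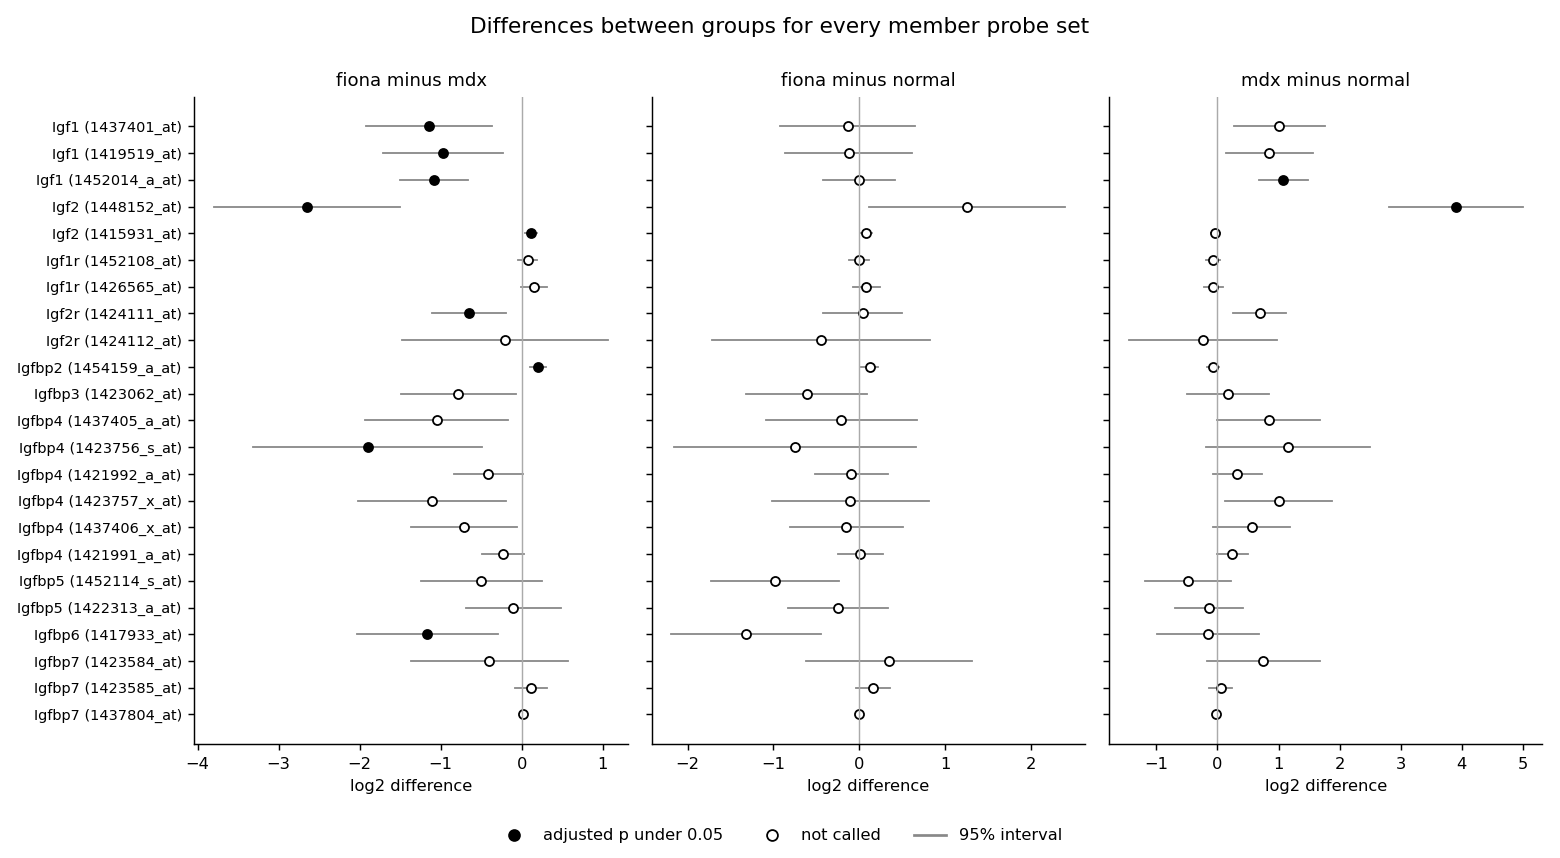
Each point is the log2 difference of 1 probe set in the 3 comparisons, with its 95% interval as a line, and a filled point marks an adjusted p under 0.05. Igf2 (1448152_at) lies at 3.90 for mdx minus normal and at -2.65 for fiona minus mdx, while no probe set is filled for fiona minus normal.

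Igf2, the fetal growth factor of the family, showed the largest difference of the 23 probe sets in both comparisons with mdx muscle. On the probe set with signal (1448152_at), the fiona arrays measured 5.99, 7.24, 7.73, 5.53 and 7.47. The 6 mdx arrays ran from 8.33 through a median of 9.29 to 11.64, and the 6 normal arrays from 5.03 through 5.54 to 6.00. Every mdx array thus lay above every fiona and every normal array, and 3 of 5 fiona arrays lay above all normal ones. In mdx muscle Igf2 was 15.0-fold higher than in normal muscle (log2 difference 3.90, SE 0.51, adjusted p = 0.000329 in limma). In fiona muscle Igf2 was 6.27-fold lower than in mdx muscle (log2 difference -2.65, SE 0.54, adjusted p = 0.0104). Against normal muscle the fiona log2 difference was 1.26 with a 95% interval of 0.11 to 2.40, which did not pass (adjusted p = 0.202). The order of the means was therefore mdx, fiona, normal, and the fiona and normal levels were not separated by the test.

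The Igf2 difference between mdx and normal muscle was 4.76 in array set 1 (adjusted p = 0.0218) and 3.05 in set 2 (adjusted p = 0.0145). Between fiona and mdx muscle it was -4.31 in set 1 (adjusted p = 0.0174), and -1.32 in set 2, which did not pass (adjusted p = 0.233). Whether the difference itself differs between the sets was not tested. In set 1 Igf2 averaged 5.76 in fiona, 10.08 in mdx and 5.31 in normal muscle, and in set 2 it averaged 7.48 in fiona, 8.80 in mdx and 5.76 in normal muscle. The 3 fiona arrays of set 2 were thus the ones above all normal arrays, and they were also the 3 with the lower Utrn levels on the 2 dim Utrn probe sets, whose part in Igf2 was not tested. The other Igf2 probe set (1415931_at) lay at or under the control level on all arrays, between 2.58 and 2.72 in fiona, between 2.49 and 2.58 in mdx and between 2.47 and 2.65 in normal muscle. Its small rise in fiona against mdx muscle (log2 difference 0.12, adjusted p = 0.0161) moved with the control level and became -0.01 when arrays were centred on their medians.

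Igf1, the growth hormone-dependent ligand that fibres and infiltrating cells also make, was read by 3 probe sets, and all 3 fell in fiona against mdx muscle. On the brightest (1437401_at), fiona arrays measured 5.70, 7.83, 7.47, 8.12 and 7.81. The mdx arrays ran from 7.85 through a median of 8.48 to 9.24 and the normal arrays from 7.08 through 7.50 to 8.14. Thus 5 of 6 mdx arrays lay above every normal array, and 4 of 5 fiona arrays lay below every mdx array. Between fiona and mdx muscle the log2 difference was -1.15 (SE 0.37, adjusted p = 0.0230). The mdx minus normal difference was 1.01 (SE 0.35), which did not pass in the fit of all arrays (adjusted p = 0.141) and passed in a fit of the mdx and normal arrays alone (adjusted p = 0.0390). Between fiona and normal muscle it was -0.14, with a 95% interval of -0.92 to 0.64. Within set 1 the fiona minus mdx difference was -1.82 (adjusted p = 0.0834) and the mdx minus normal difference 1.40 (adjusted p = 0.125), and within set 2 they were -0.63 (adjusted p = 0.241) and 0.62 (adjusted p = 0.404), so none passed there. The first fiona array stood apart at 5.70, and without it the fiona minus mdx difference was -0.72 (adjusted p = 0.0316) and the fiona minus normal difference 0.28 (adjusted p = 0.465).

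The dimmest Igf1 probe set (1452014_a_at) separated mdx from the other groups without overlap. Fiona arrays measured 2.86, 3.36, 3.19, 3.55 and 3.14 on it, against 3.82 to 4.88 in mdx muscle (median 4.23) and 3.12 to 3.44 in normal muscle (median 3.16). It rose in mdx against normal muscle (log2 difference 1.08, SE 0.19, adjusted p = 0.00328) and fell in fiona against mdx muscle (log2 difference -1.08, SE 0.20, adjusted p = 0.00543). Between fiona and normal muscle the difference was -0.00, with an interval of -0.42 to 0.42. The normal and fiona arrays of this probe set lay close to the control level, and 1 fiona array lay at or under it. Within set 2 neither difference passed (mdx minus normal 1.06, adjusted p = 0.115, and fiona minus mdx -0.98, adjusted p = 0.206).

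The third Igf1 probe set (1419519_at) measured 5.65, 5.98, 5.08, 7.00 and 5.48 on the fiona arrays. It ran from 5.95 through a median of 7.00 to 7.35 in mdx muscle and from 4.95 through 6.03 to 6.58 in normal muscle. The groups overlapped, with 4 of 6 mdx arrays above every normal one. The fiona minus mdx log2 difference was -0.97 (SE 0.35, adjusted p = 0.0359), and the mdx minus normal difference of 0.85 did not pass (adjusted p = 0.200). The fiona call ended without fiona array 1, 3 or 5 or mdx array 1, 3, 4 or 5, with adjusted p values between 0.0607 and 0.0991. Over the 3 Igf1 probe sets, then, the direction was the same in both comparisons with mdx muscle, and the fiona minus normal differences were -0.14, -0.12 and -0.00.

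**Figure D2:**
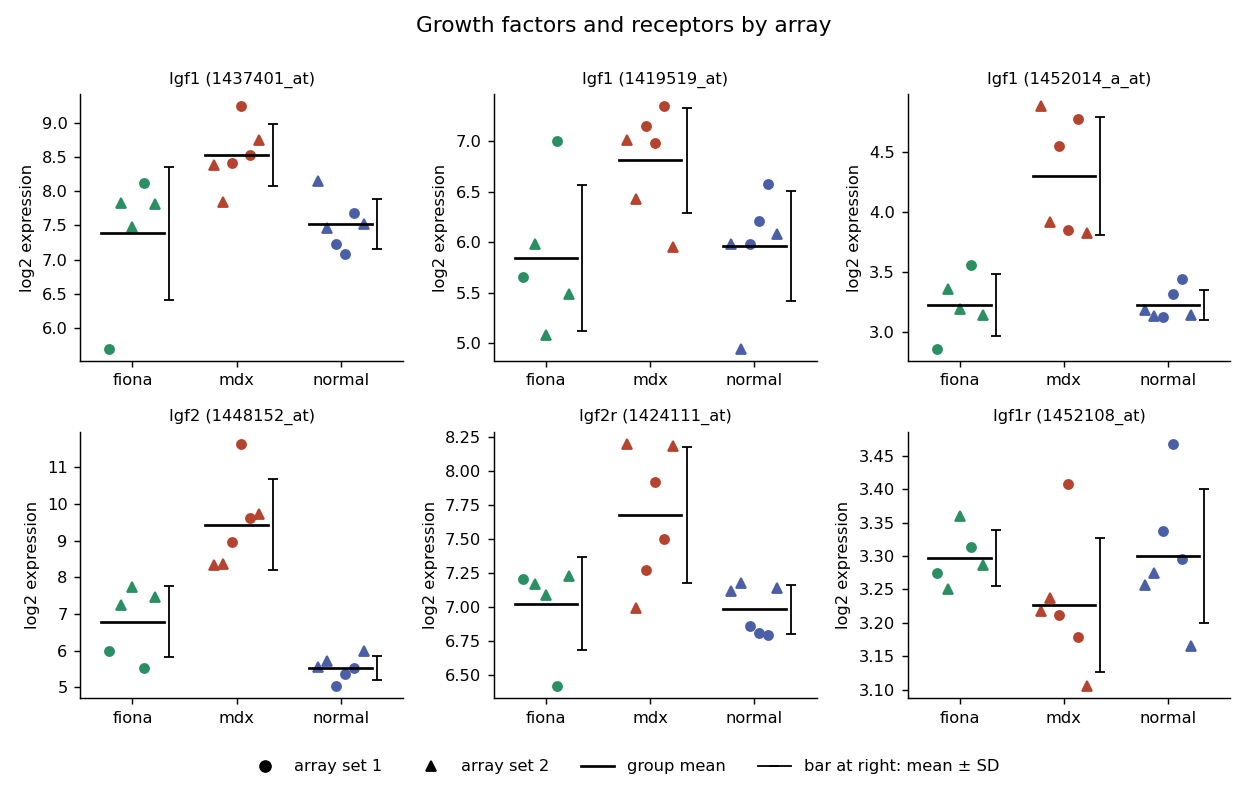
Log2 expression of ligand and receptor probe sets by group, with 1 point per array (circles for array set 1, triangles for array set 2), a line at the group mean and a bar of mean ± SD. Igf2 lies between 8.33 and 11.64 in mdx muscle and between 5.03 and 6.00 in normal muscle, and the vertical scales differ between panels.

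Of the receptors, Igf2r was lower in fiona than in mdx muscle and Igf1r showed little signal. Igf2r (1424111_at) measured 7.20, 7.17, 7.09, 6.42 and 7.23 on the fiona arrays. It ran from 7.00 through a median of 7.71 to 8.20 in mdx muscle and from 6.79 through 6.99 to 7.18 in normal muscle. The lowest mdx array fell inside the fiona and normal ranges, and the other 5 lay above both. Igf2r fell in fiona against mdx muscle (log2 difference -0.65, SE 0.21, adjusted p = 0.0252). It did not pass between mdx and normal muscle (log2 difference 0.69, SE 0.20, adjusted p = 0.0781), where the call appeared without mdx array 2, the lowest (0.83, adjusted p = 0.0184), or with the array set as a block (adjusted p = 0.0350). The fiona call ended without fiona array 4 or mdx array 1, 4 or 6 (adjusted p between 0.0505 and 0.0640). Against normal muscle the fiona difference was 0.04, with an interval of -0.42 to 0.50.

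A further Igf2r probe set (1424112_at) passed in no comparison. Its log2 differences were -0.24 for mdx minus normal, -0.21 for fiona minus mdx and -0.45 for fiona minus normal. On it mdx array 1 stood at 2.86 while the other 5 mdx arrays lay between 5.90 and 7.36, although the same array had the highest mdx value, 8.20, on the first probe set. Igf1r, the signalling receptor, stayed between 3.10 and 3.67 on all arrays of both its probe sets, above the control level. Its brighter probe set (1452108_at) averaged 3.30 ± 0.04 in fiona (SD, n = 5), 3.23 ± 0.10 in mdx and 3.30 ± 0.10 in normal muscle (n = 6 each). The log2 differences were -0.07 for mdx minus normal (95% interval -0.18 to 0.04), 0.07 for fiona minus mdx (-0.04 to 0.18) and -0.00 for fiona minus normal (-0.12 to 0.11). Signal this close to the control level limits what these probe sets can show.

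The binding proteins differed among themselves, and 0 of their 14 probe sets passed between mdx and normal muscle in the fit of all arrays. In fiona against mdx muscle Igfbp4 and Igfbp6 fell and Igfbp2 rose by a small amount. Igfbp4, which holds IGFs until a pappalysin cuts it, was read by 6 probe sets. On 1423756_s_at, whose suffix marks probes shared by several transcripts in Affymetrix naming, fiona arrays measured 4.29, 8.01, 7.32, 4.99 and 7.21. The mdx arrays ran from 6.96 through a median of 8.25 to 9.60, and the normal arrays from 6.13 through 7.06 to 7.90. Fiona arrays 1 and 4 lay below all others, and the remaining 3 lay within the mdx range. The fiona minus mdx log2 difference was -1.90 (SE 0.66, adjusted p = 0.0321), and the call ended without fiona array 1 or 4 or mdx array 1 or 6 (adjusted p between 0.0653 and 0.0857). It was -2.85 in set 1 (adjusted p = 0.0164), which holds fiona arrays 1 and 4, and -1.53 in set 2 (adjusted p = 0.186).

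On the brightest Igfbp4 probe set (1437405_a_at) the same arrays stood apart. The fiona arrays measured 7.70, 9.13, 8.70, 7.55 and 8.63, against 8.30 to 10.63 in mdx muscle (median 9.44) and 7.93 to 9.16 in normal muscle (median 8.55). Fiona arrays differed from mdx arrays by -1.05 (SE 0.41, adjusted p = 0.0529), just short of the threshold, and passed without fiona array 2 or mdx array 3 or 5 (adjusted p between 0.0287 and 0.0422). The mdx minus normal difference was 0.84 (SE 0.39, adjusted p = 0.289). With the array set as a block both passed, at -1.16 for fiona minus mdx (adjusted p = 0.00359) and 0.84 for mdx minus normal (adjusted p = 0.0155). That block was drawn from these same values, so its p values tend to be too small. The fiona minus mdx difference also passed within set 1 (-1.12, adjusted p = 0.0359), with the sex covariate (-1.44, adjusted p = 0.0145) and with trend and robust settings (adjusted p = 0.0441), and did not in set 2 (-1.22, adjusted p = 0.142). The other 4 Igfbp4 probe sets were not called, and their fiona minus mdx differences ran from -1.11 to -0.23. All 6 were thus negative in that comparison and positive for mdx minus normal, where they ran from 0.24 to 1.16. The smallest difference in each was that of 1421991_a_at, which lay at or under the control level on all arrays. With its values raised to that level the differences were 0.20 for fiona minus mdx and -0.08 for mdx minus normal. On 1437406_x_at and 1423757_x_at some fiona and normal arrays also lay there. The 6 were designed in pairs from the same sequence record, so they are not 6 separate readings.

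Igfbp6, which binds IGF2 in preference to IGF1, fell in fiona against mdx muscle. Fiona arrays measured 6.27, 8.02, 7.52, 6.63 and 6.49 on its probe set. The mdx arrays ran from 7.55 through a median of 8.10 to 9.12, and the normal arrays from 7.36 through 8.43 to 9.12. All but the second fiona array lay below every mdx array. The fiona minus mdx log2 difference was -1.16 (SE 0.41, adjusted p = 0.0334). It was of like size within both sets, at -1.23 in set 1 (adjusted p = 0.0902) and -1.28 in set 2 (adjusted p = 0.241). The call ended without fiona array 1, 4 or 5 or mdx array 1, 2 or 6 (adjusted p up to 0.0828). Between mdx and normal muscle Igfbp6 differed by -0.15, with an interval of -0.98 to 0.68. The fiona minus normal difference of -1.32 (95% interval -2.19 to -0.45) did not pass (adjusted p = 0.198), but did without fiona array 2 (-1.58, adjusted p = 0.0419).

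Igfbp5, a binding protein that muscle cells themselves make, had high signal, and its means ran in the order normal, mdx, fiona, as those of Igfbp6 did. Its bright probe set (1452114_s_at) measured 9.26, 10.63, 10.29, 9.87 and 9.68 on fiona arrays. The range was 8.95 to 11.05 in mdx muscle (median 10.65) and 10.24 to 11.33 in normal muscle (median 11.05). The fiona range lay within the mdx range, and 3 of 5 fiona arrays lay below every normal array. None of the differences passed: -0.49 for mdx minus normal (adjusted p = 0.356), -0.50 for fiona minus mdx (adjusted p = 0.270) and -0.98 for fiona minus normal (95% interval -1.73 to -0.24, adjusted p = 0.198). Without mdx array 4, which stood apart at 8.95, the fiona minus mdx difference was -0.80 and passed (adjusted p = 0.0308). The dim Igfbp5 probe set (1422313_a_at) did not pass in any comparison.

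Igfbp7, a secreted protein of blood vessels with low affinity for IGFs, was bright in all groups, and its levels followed the array sets more than the groups. On 1423584_at fiona arrays measured 8.93, 10.78, 10.86, 8.96 and 10.76. The mdx arrays ran from 9.60 through a median of 10.52 to 11.31, and the normal arrays from 8.97 through 9.76 to 10.33. In each group every array of set 2 lay above every array of set 1. In set 1 Igfbp7 averaged 8.95 in fiona, 9.88 in mdx and 9.22 in normal muscle, and in set 2 it averaged 10.80 in fiona, 11.04 in mdx and 10.20 in normal muscle. The brightest Igfbp4 probe set split in the same way, with 7.62 in fiona, 8.75 in mdx and 8.09 in normal muscle in set 1, and 8.82 in fiona, 10.04 in mdx and 9.01 in normal muscle in set 2. The sets were defined from all probe sets, these included, so the split is a description, and p values with the set as a block tend to be too small.

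For Igfbp7 the mdx minus normal difference of 0.75 (SE 0.43) did not pass in the fit of all arrays (adjusted p = 0.327). It did with the replicate number as a block in a fit of the mdx and normal arrays alone, an alternative added after the data were seen (adjusted p = 0.0290), and with the array set as a block (adjusted p = 0.0204). Between fiona and mdx muscle the difference of -0.40 did not pass (adjusted p = 0.508) in the fit of all arrays and passed with the array set as a block (-0.53, adjusted p = 0.0371). The other Igfbp7 probe sets were not called. On 1423585_at all arrays lay between 4.65 and 5.36, and 1437804_at lay under the control level throughout.

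Igfbp3, the main IGF carrier of serum, measured 5.00, 6.35, 5.75, 5.70 and 5.54 on the fiona arrays. The range was 5.86 to 7.68 in mdx muscle (median 6.15) and 5.68 to 7.03 in normal muscle (median 6.24). Although 4 of 5 fiona arrays lay below every mdx array, the difference of -0.78 did not pass (SE 0.33, adjusted p = 0.0694), and passed without fiona array 2 (-0.95, adjusted p = 0.0340). Between mdx and normal muscle Igfbp3 differed by 0.17, with an interval of -0.50 to 0.84, and by -0.08 without mdx array 4, the highest. Igfbp2, another carrier, had little signal: 3.52, 3.40, 3.65, 3.55 and 3.58 on fiona arrays, 3.29 to 3.40 in mdx muscle and 3.25 to 3.51 in normal muscle. It rose in fiona against mdx muscle by 0.20 (SE 0.05, adjusted p = 0.0120). The control level moved the same way, at 2.89 in fiona and 2.70 in mdx muscle, and the call was lost with centred arrays (0.07, adjusted p = 0.0882) and with quantile normalization (0.08, adjusted p = 0.0589).

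**Figure D3:**
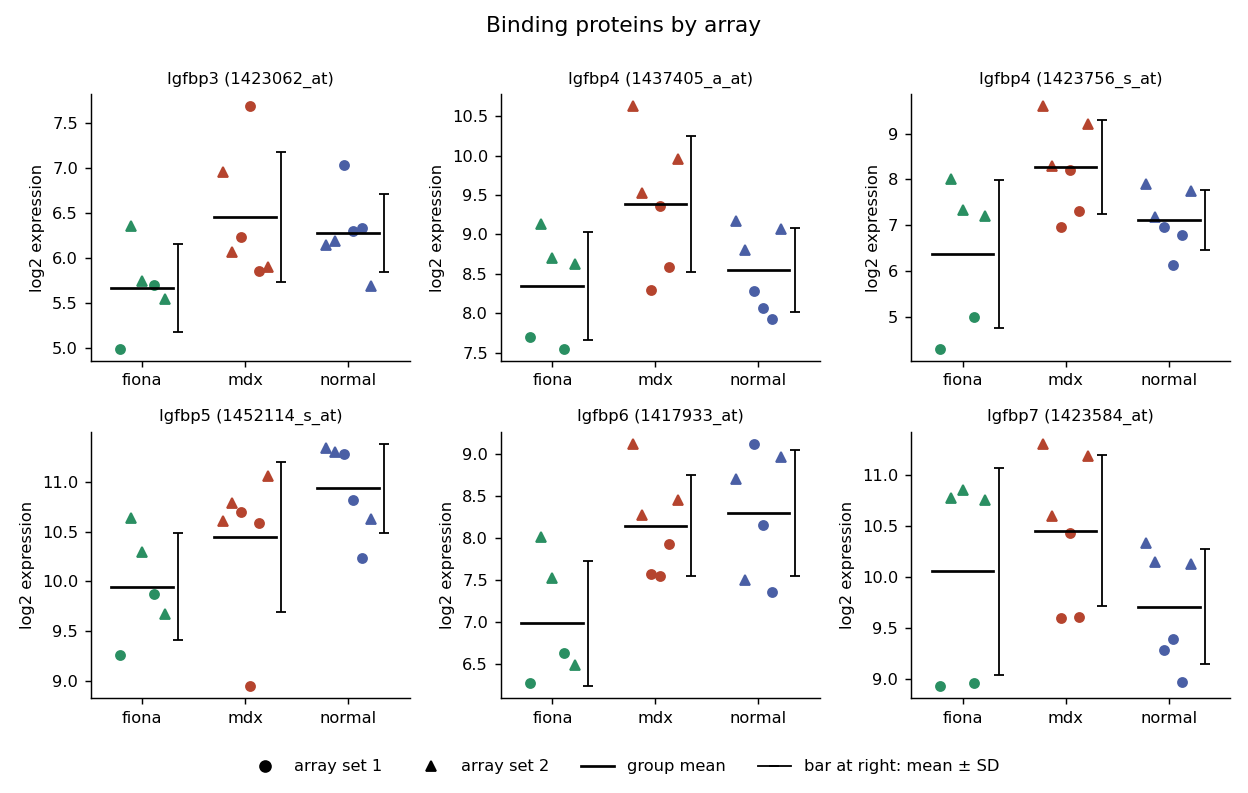
Log2 expression of binding protein probe sets by group, with 1 point per array (circles for array set 1, triangles for array set 2), a line at the group mean and a bar of mean ± SD. For Igfbp7 (1423584_at) the circles and triangles separate in each group, and for Igfbp6 4 of 5 fiona points lie below the lowest mdx point at 7.55.

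Taking the brightest probe set of each gene, 1 of 10 rose in mdx against normal muscle and 0 fell, where 3.17% of all 12393 genes rose and 1.33% fell. In fiona against mdx muscle 1 rose and 4 fell, where 33.9% of genes rose and 7.00% fell. In fiona against normal muscle 0 of 10 passed, and 0% of genes passed in either direction. The medians over the 10 were 0.43, -0.72 and -0.07 in these comparisons, against -0.04, 0.08 and 0.04 over all genes.

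The values on the 10 arrays with a male level of Eif2s3y, mdx array 6 among them, were as follows. For mdx minus normal, with 4 mdx and 5 normal arrays, Igf2 differed by 3.72 (adjusted p = 0.000847) and Igf1 (1452014_a_at) by 1.03 (adjusted p = 0.0471), so both calls remained, as they did with mdx array 6 also left out (3.54, adjusted p = 0.00325, and 1.18, adjusted p = 0.0371). For fiona minus mdx a single fiona array was left, assumed to vary like the other groups. Igf2 differed there by -3.63 (adjusted p = 0.00355), while Igf1 did not pass at -0.27, 0.28 and -0.71 on its 3 probe sets. Igf2r at -1.07, Igfbp4 (1423756_s_at) at -2.96 and Igfbp6 at -1.43 did not pass either. With mdx array 6 also left out, Igf2 differed by -3.45 (adjusted p = 0.00719) and was the only one of the 23 probe sets called. With the sex pattern as a covariate on all arrays, the fiona minus mdx differences were -3.09 for Igf2 (adjusted p = 0.00431), -1.12, -0.87 and -1.04 for Igf1, -0.89 for Igf2r, -2.42 for Igfbp4 and -1.38 for Igfbp6. Of these, Igf1 on 1419519_at did not pass (adjusted p = 0.0857). The fiona minus normal difference of Igf2 was 0.65 with the covariate and 0.09 on the arrays with a male pattern. Sex pattern and fiona genotype are thus only partly separable in these arrays.

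Over the 17 arrays, the genes whose centred profile was most like that of Igf2 were Tmsb10, Maged2 and Plagl1, out of 12392 compared. Their root mean square difference from the Igf2 profile was 0.776, 0.834 and 0.890, where the Igf2 profile itself had a root mean square of 1.87. The mdx minus normal difference was 3.25 for Tmsb10, 3.27 for Maged2 and 2.57 for Plagl1, and the fiona minus mdx difference was -2.32, -2.82 and -2.39. All 17 points share the group structure and the array sets.

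Downstream of the receptors, 27 of 35 listed IGF signalling genes were measured, each by its brightest probe set. In mdx against normal muscle 0 rose and 1 fell, with a median log2 difference of -0.08, where 3.17% of all genes rose and 1.33% fell. The gene was Foxo1, a transcription factor that AKT holds out of the nucleus, at 5.66 in mdx and 6.46 in normal muscle (log2 difference -0.80, adjusted p = 0.0481). In fiona against mdx muscle 5 rose and 3 fell, with a median of 0.06, where 33.9% of all genes rose and 7.00% fell. Those that fell were Grb10, an adaptor that restrains insulin and IGF1 receptors, Eif4ebp1, the translation repressor that mTOR phosphorylates, and Grb2, an adaptor that links receptors to Ras. Grb10 averaged 7.89 in fiona and 9.25 in mdx muscle (log2 difference -1.36, adjusted p = 0.0185). Eif4ebp1 averaged 7.46 in fiona and 8.25 in mdx muscle (-0.78, adjusted p = 0.0120), and Grb2 averaged 6.59 in fiona and 7.20 in mdx muscle (-0.60, adjusted p = 0.0120). Mtor, the kinase of the growth pathway, averaged 7.63 in fiona and 7.20 in mdx muscle (0.43, adjusted p = 0.0340). The other rises were of Insr, Irs3, Irs4 and Sos1, named after their values were seen, at log2 differences of 0.08 to 0.43, and Irs4 lay at or under the control level on every array of both groups. Between fiona and normal muscle 0 passed.

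Among genes of IGF carriage, of the proteases that cut binding proteins and of related proteins, 20 of 23 were measured. Of these, 1 rose and 1 fell in mdx against normal muscle, where 3.17% of all genes rose and 1.33% fell. In mdx against normal muscle Mmp3, a matrix protease able to cut IGF binding proteins, averaged 4.59 in mdx and 2.75 in normal muscle (log2 difference 1.83, adjusted p = 0.0115), and 4 of the 6 normal arrays did not exceed the control level. Kazald1, an IGFBP-related protein, was called lower (log2 difference -0.20, adjusted p = 0.0333) with all mdx arrays at or under that level. Between fiona and mdx muscle 7 rose and 3 fell, where 33.9% of all genes rose and 7.00% fell. Of the 7, Igfbp1, Igfbpl1 and Kazald1 lay at or under the control level on all mdx arrays and on at least 4 of 5 fiona arrays. Ccn2, a matricellular growth factor with an IGFBP-like domain, averaged 5.66 in fiona and 7.56 in mdx muscle (log2 difference -1.90, adjusted p = 0.0210). Mmp3 averaged 2.82 in fiona, where 4 of 5 arrays lay at or under the control level, and 4.59 in mdx muscle (-1.76, adjusted p = 0.0120). Htra1, a serine protease that cuts binding proteins, averaged 6.43 in fiona and 7.28 in mdx muscle (-0.85, adjusted p = 0.0259). The largest of the 7 rises was that of Esm1, an endothelial proteoglycan, at 0.55 (adjusted p = 0.0126). Median log2 differences of the list were -0.02 for mdx minus normal and 0.04 for fiona minus mdx, and 0 genes passed between fiona and normal muscle.

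All 9 listed genes of the growth hormone axis, which drives Igf1 transcription through STAT5 in the liver, were measured. Of these, 2 rose and 1 fell in mdx against normal muscle, where 3.17% of all genes rose and 1.33% fell. In mdx against normal muscle Socs3, a feedback inhibitor of cytokine signalling, rose to 6.39 in mdx, against 4.99 in normal muscle (log2 difference 1.40, adjusted p = 0.0376). Ptpn1, a phosphatase of insulin and cytokine receptors, averaged 5.32 in mdx and 4.67 in normal muscle (0.65, adjusted p = 0.0306). Stat5b fell to 8.28 in mdx, against 9.36 in normal muscle (-1.08, adjusted p = 0.0369). In fiona against mdx muscle only Ptpn1 passed, at -0.52 (adjusted p = 0.0229), where 33.9% of all genes rose and 7.00% fell. Between fiona and normal muscle 0 passed. The medians were -0.57 for mdx minus normal and 0.12 for fiona minus mdx.

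Markers of other cells were read in the same way. Over all genes 3.17% rose and 1.33% fell in mdx against normal muscle, and 33.9% rose and 7.00% fell in fiona against mdx muscle. Of 12 macrophage markers 9 rose in mdx against normal muscle (median log2 difference 2.67) and 10 fell in fiona against mdx muscle (median -2.62), with the list's mean level at 4.69 to 5.42 in fiona, 6.94 to 7.91 in mdx and 4.48 to 5.44 in normal muscle. Cd68 was at or under the control level on every fiona and normal array. Of 12 markers of satellite cells and regenerating fibres, 6 rose in mdx against normal muscle (median 1.84), and 7 fell and 1 rose in fiona against mdx muscle (median -1.26). Their mean level was 5.08 to 5.35 in fiona, 5.69 to 7.60 in mdx and 4.69 to 5.07 in normal muscle, with Mymk at or under the control level on every fiona and normal array. The 1 rise in fiona was that of Pax7, at 0.07 (adjusted p = 0.0333). The markers of this list not called in mdx against normal muscle were Pax7, Myf5, Myod1, Cdh15, Des and Chrng, named after their values were seen. Their log2 differences there were -0.05, 0.72, 2.30, 0.52, 0.36 and 1.38. Of 11 fibroblast markers, 3 rose in mdx against normal muscle (median 0.89) and 8 fell in fiona against mdx muscle (median -1.56), with mean levels of 7.31 to 8.88 in fiona, 9.18 to 10.2 in mdx and 8.24 to 9.20 in normal muscle. Fiona array 1, the lowest of all arrays on 2 of the 3 Igf1 probe sets, was also the lowest of all on the fibroblast, tendon (5.39) and adipocyte (5.11) lists. It was the lowest fiona array on the macrophage list and on the satellite cell and regenerating fibre list too. On the endothelial and mature fast fibre lists it was not the lowest fiona array. In fiona against mdx muscle 1 of 8 endothelial, 1 of 4 adipocyte and 1 of 10 mature fast fibre markers rose and 1 of 6 tendon markers fell, where 33.9% of all genes rose and 7.00% fell. On these 4 lists 0 markers passed between mdx and normal muscle. The part of these cells in the differences of Igf2, Igf1, Igf2r, Igfbp4 and Igfbp6 was not tested, and in whole muscle a change in the number of cells of a type and a change in RNA per cell cannot be told apart.

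**Figure D4:**
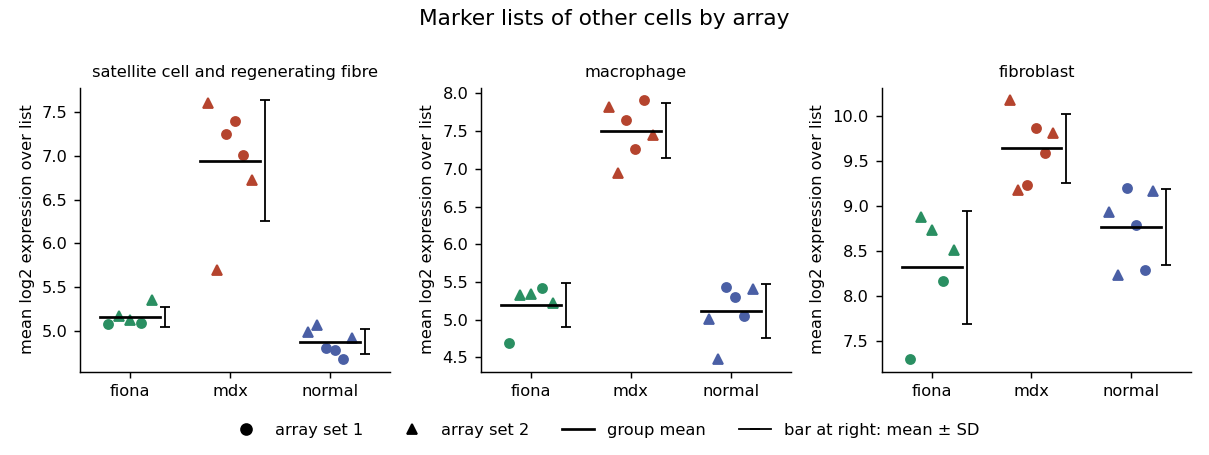
Mean log2 expression over the markers of 3 other cell types by group, with 1 point per array (circles for array set 1, triangles for array set 2), a line at the group mean and a bar of mean ± SD. Macrophage markers lie between 6.94 and 7.91 in mdx muscle, above all fiona and normal arrays, and fibroblast markers overlap between mdx and normal muscle.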

How the data were processed

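The deposited table holds log2 expression values of 22690 probe sets on 17 arrays. Total RNA was extracted with Trizol and RNeasy columns and 8 µg per sample was labelled, per the labels' protocols. The submitters' processing notes name RMA and GCRMA, both of which correct background, normalize between arrays and summarise probes, and the sources used here do not say which of them made the table. The array image files were not used here. Array medians lay between 3.52 and 3.82, correlations between arrays between 0.939 and 0.996, and 0 pairs were identical. Precision is limited by the number of arrays.

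Setting aside 64 control probe sets left 22626. Symbols came from GEO's platform annotation of 2016, with 20380 probe sets listed under 1 symbol, 691 under several and 1555 under none. The limma package 3.58.1 (R 4.3.3) fitted 1 mean per group and moderated the variances with eBayes, and Benjamini-Hochberg adjustment ran over all probe sets, with calls at an adjusted p under 0.05. The steps were tested on simulated data. Exact permutation tests used scipy 1.17.1 and figures matplotlib 3.10.9. The control level of an array is the median of 15 unspiked bacterial probe sets. The members, lists and alternatives were chosen with earlier results of these data known. All members were described, with values for probe sets called in any comparison or brightest for their gene, and up to 4 called genes per list with the largest change. Each listed gene was read on its brightest probe set, and listed genes that were not matched are not analysed here.

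Replicate numbers of the labels were checked for pairing: deviations of same-numbered mdx and normal arrays correlated at 0.107 to 0.603 in 6 of 6 pairs. Both arrays of each such pair lie in the same array set, so these correlations cannot tell a pairing from the sets. No label states a shared animal or day. Fiona correlations ran from -0.420 to 0.295 with mdx arrays and from -0.512 to 0.485 with normal arrays. They were positive where both arrays lay in the same set and negative where they did not. Alternatives were array centring, quantile normalization, a filter on dim probe sets, 1 probe set per gene, only the compared groups, the replicate number or array set as a block, each array set alone, the sex pattern, trend and robust settings, and leaving out each array.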

Additional observations from a re-analysis of the deposited data

Results flagged for a closer look

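Over 14 probe sets with 3 groups each, 42 groups of 5 or 6 arrays were examined for a single array far from the others by Dixon's ratio at the 95% level, which chance exceeds in about 1 group in 20, and 4 values stood out. For Igf1 (1437401_at), fiona array 1 measured 5.70, where the nearest fiona array measured 7.47. For Igf1 (1419519_at), normal array 2 measured 4.95, where the nearest normal array measured 5.98. For Igf2r (1424111_at), fiona array 4 measured 6.42, where the nearest fiona array measured 7.09. For Igfbp5 (1452114_s_at), mdx array 4 measured 8.95, where the nearest mdx array measured 10.6. The same mdx array had the highest mdx values of Igf2 and Igfbp3.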

How the results depend on the processing

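Among member probe sets (members), the 2 calls for mdx minus normal were 1 with 1 probe set per gene or within array set 2 and 5 with the array set as a block. The 9 calls for fiona minus mdx were 4 with arrays centred on their medians, 2 with quantile normalization or on the arrays with a male pattern, 1 when mdx array 6, with both Xist and Eif2s3y, was left out of those arrays as well (an alternative chosen after seeing the data), 5 with 1 probe set per gene or with only the 2 groups compared, 3 with the replicate block, 14 with the array set as a block and 0 within array set 2. In the others the count stayed within 1.5 times the original. Counts with the array set as a block rest on sets drawn from these same values and tend to be too high. Leaving out 1 array at a time gave 2 to 3 calls for mdx minus normal, 6 to 12 for fiona minus mdx and 0 to 2 for fiona minus normal, where the 2 appeared without fiona array 2. For mdx minus normal, whose same-numbered arrays share an array set, the replicate block gave 2 calls in the fit of all arrays and 3 in a fit of both groups alone, where Igfbp7 was added and no other call of a described probe set changed. The causes were not tested, except that 1 probe set per gene tests fewer probe sets and the fits within a set or on male-pattern arrays hold fewer arrays.

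Igf2 on 1448152_at passed for mdx minus normal in all 14 alternatives and all 12 fits that left out an array, and for fiona minus mdx in 12 of 13 alternatives and all 11 such fits, the exception being array set 2. Apart from fits that left out an array, 448 values of single probe sets kept direction and call, 51 lost a call, 13 gained one and 33 turned sign, and of those that turned only the calls of Igf2 (1415931_at) and Igf1 (1419519_at) for fiona minus mdx had passed at first. For fiona minus mdx these were Igf2 (1415931_at) at -0.0072 and Igf1r at -0.0543 with centred arrays, Igf1r at -0.0543 with quantile normalization, and Igf1 (1419519_at) at 0.28 on male-pattern arrays and 0.0238 without mdx array 6 as well. For mdx minus normal they were Igfbp6 at 0.22 within array set 2 and Igfbp3 at -0.38 on male-pattern arrays and -0.34 without mdx array 6 as well. For fiona minus normal, centring gave -0.0115 for Igf2 (1415931_at) and -0.0535 for Igf2r. Quantile normalization gave 0.0265 and 0.0172 for Igf1 (1437401_at and 1419519_at). The array set as a block gave 0.0094 for Igf1 (1452014_a_at) and 0.0046 for Igf1r. Array set 1 alone gave 0.0677 for Igf1 (1419519_at), -0.0110 for Igf2r and -0.27 for Igfbp7, and set 2 alone gave 0.0783 for Igf1 (1452014_a_at) and 0.0664 for Igf1r. The sex covariate gave 0.0196 and 0.0586 for Igf1 (1419519_at and 1452014_a_at), -0.29 for Igf2r and -0.15 for Igfbp7. Male-pattern arrays, with or without mdx array 6, gave 0.60, 1.06 and 0.32 for Igf1 in the order of the report's probe sets 1437401_at, 1419519_at and 1452014_a_at, -0.53 for Igf2r and -0.66 for Igfbp7. Leaving out 1 array, the fiona minus normal range was -0.32 to 0.28, -0.41 to 0.0663 and -0.0850 to 0.0891 for those Igf1 probe sets, -0.0299 to 0.0308 for Igf1r and -0.0127 to 0.19 for Igf2r. The mdx minus normal range was -0.0757 to 0.32 for Igfbp3 and -0.35 to 0.0104 for Igfbp6.

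The fiona minus mdx calls of Igf1 (1437401_at), Igf2r, Igfbp4 and Igfbp6 each ended in 7 of their 12 or 13 alternatives, and that of Igf1 (1419519_at) in 10 of 12. Probe sets near the control level, such as those of Igf1r and Igfbp2, can show little fall. A rise from such a level was seen for Igf1 (1452014_a_at), at 3.22 in normal and 4.30 in mdx muscle.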
